A study of Danio rerio with 19 samples.

Results

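The heads of zebrafish larvae labelled homozygous for dyrk1a (HOM) were compared with the heads of wild-type larvae of the same line (WT) by bulk RNA-seq. The HOM group held 4 libraries (HOM1, HOM2, HOM3 and HOM5) and the WT group 3 (WT1, WT2 and WT4), chosen by their genotype labels, which made 7 of the 19 libraries of the series. A further 3 libraries came from heterozygous larvae of the line (HET2, HET3 and HET4) and served as an additional comparison group. The 9 other libraries came from a scn1lab mutant line. By their labels, 3 of these were homozygous (scn1lab HOM), 3 heterozygous (scn1lab HET) and 3 wild type (scn1lab WT).

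Zebrafish carry a pair of DYRK1A genes, dyrk1aa and dyrk1ab. The labelled cross was between fish heterozygous for the deletion alleles dyrk1aaΔ77 and dyrk1abΔ8. The genotype label says only that the larvae were homozygous, and does not spell out the state of each copy. HET larvae likewise carry the label heterozygous, and WT larvae the label wild type. Each library was made from a single head after removal of the eyes, so no larvae were pooled and p-values measure the spread between individual larvae. The larvae were closely related offspring of these crosses, and their age is not given in the sources used here. RNA came from either of a pair of extraction kits, and the labels do not say which library used which. The labels call the tissue whole brain, although the protocol describes heads. Neuronal ELAVL4 was at 244 to 422 CPM (read counts scaled to a common library size, with TMM factors) in HOM and 402 to 518 CPM in WT heads, and skeletal muscle genes took 0.47% to 2.64% of counts in HOM and 1.06% to 2.34% in WT heads, so transcripts from outside the brain were also present.

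DYRK1A is a protein kinase whose best known loss-of-function effects in people are small head size, intellectual disability and autism. In mammalian cells it phosphorylates LIN52, which lets the DREAM complex assemble with RB-family proteins and silence the genes of DNA replication and mitosis in resting cells. It also phosphorylates D-type cyclins, which leads to their degradation, and NFAT transcription factors, which sends them out of the nucleus.

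Libraries of the line held 16185321 to 27649859 counts (HOM 16185321 to 21176216, WT 19082662 to 24190917). HET4 (median correlation with the other libraries of the line 0.8728), HOM3 (0.8818) and HOM5 (0.8939) stood apart from the remaining 7, which had median correlations of 0.9022 to 0.9221. Values without these 3 libraries, and without single libraries, are given beside the lists whose counts they moved most, and the shares of all genes against which each list is read are 4.54% higher and 3.26% lower at an unadjusted p under 0.05.

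The targeted genes were examined first. The files hold DYRK1A under 2 gene IDs that could not be assigned to dyrk1aa or dyrk1ab. The more abundant ID was at 44.6, 43.4, 53.5 and 65.2 CPM across HOM1, HOM2, HOM3 and HOM5, and at 40.4, 38.2 and 42.1 CPM across WT1, WT2 and WT4 (log2 fold change 0.36, SE 0.17, adjusted p = 0.655, edgeR quasi-likelihood test). The less abundant ID was at 16.9, 23.3, 26.8 and 7.68 CPM in the HOM and at 9.61, 19.2 and 12.2 CPM in the WT libraries (log2 fold change 0.45, SE 0.46, adjusted p = 0.876), with overlapping groups. A small deletion need not lower the transcript, so these values do not check the genotype labels.

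No gene passed the test between HOM and WT heads. Of 21025 genes tested with edgeR's quasi-likelihood test in a fit over the 10 libraries of the line, 0 were higher (0%) and 0 lower (0%) at an adjusted p under 0.05, and the smallest adjusted p was 0.449. At an unadjusted p under 0.05 there were 1640 genes (7.8%), 954 higher in HOM (4.54%) and 686 lower (3.26%). DESeq2's Wald test called 125 genes higher and 37 lower at an adjusted p under 0.05, and limma's voom fit with quality weights called 0 in either direction. The values below therefore describe genes that did not pass the edgeR test. DESeq2 did call all 20 of the genes with the smallest edgeR p-values (10 in each direction), and 42 of the 106 gene IDs named by rule. Both tests used the same counts, and most of these genes were chosen by small edgeR p-values, so these calls are not independent evidence. Every fold change is the log2 ratio of HOM over WT unless another group is named, and adjusted p-values are from the edgeR fit. In RNA from whole heads, fewer cells of a type and less RNA per cell cannot be told apart.

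The lists of genes that copy and divide the genome took a larger share of counts in each HOM head than in any HET or WT head. No single gene on them passed the edgeR test. All 54 DNA replication genes tested, of 55 gene IDs on the list, had a log2 fold change above 0, with a median of 1.25 against 0.01 over all genes tested. Of these, 43 (79.6%) reached an unadjusted p under 0.05 in the higher direction, against 4.54% of all genes, and 27 (50%) had every HOM library above every WT library, against 4.05% of all genes. Mitosis, spindle and kinetochore genes had a median of 1.08 over 59 genes tested of 60, with 37 (62.7%) at an unadjusted p under 0.05 and 21 (35.6%) with every HOM library above every WT library. No gene on either list reached that p in the lower direction. DESeq2 called 20 of the 54 replication genes and 4 of the 59 mitosis genes higher, against 125 of all 21025 genes. Genes of a list can vary together from head to head, so counts of members are not counts of replicates.

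The share of all counts taken by replication genes was 0.179%, 0.207%, 0.142% and 0.172% in HOM1, HOM2, HOM3 and HOM5. It was 0.0913%, 0.0812% and 0.0753% in HET2, HET3 and HET4, and 0.120%, 0.0880% and 0.0714% in WT1, WT2 and WT4. The 4 HOM heads were the 4 highest of the line, and WT1 was the highest of the rest. The means were 0.175% ± 0.0263 in HOM (SD, n = 4), 0.0826% ± 0.00808 in HET (n = 3) and 0.093% ± 0.0245 in WT heads (n = 3), a ratio of 1.88 over WT. For mitosis genes the shares were 0.0864%, 0.107%, 0.0923% and 0.124% in the HOM libraries, 0.0479%, 0.0466% and 0.0441% in the HET libraries and 0.0814%, 0.0488% and 0.0395% in the WT libraries. Here too no HOM library lay within the range of the others, but WT1 came close to HOM1. Leaving out HOM3, HOM5 and HET4 gave a median of 1.41 for replication genes, with 42 of 53 at an unadjusted p under 0.05, and a median of 1.04 for mitosis genes, with 23 of 59. Leaving out WT2 gave 21 mitosis genes at that p, and leaving out WT4 gave 19.

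**Figure D1:**
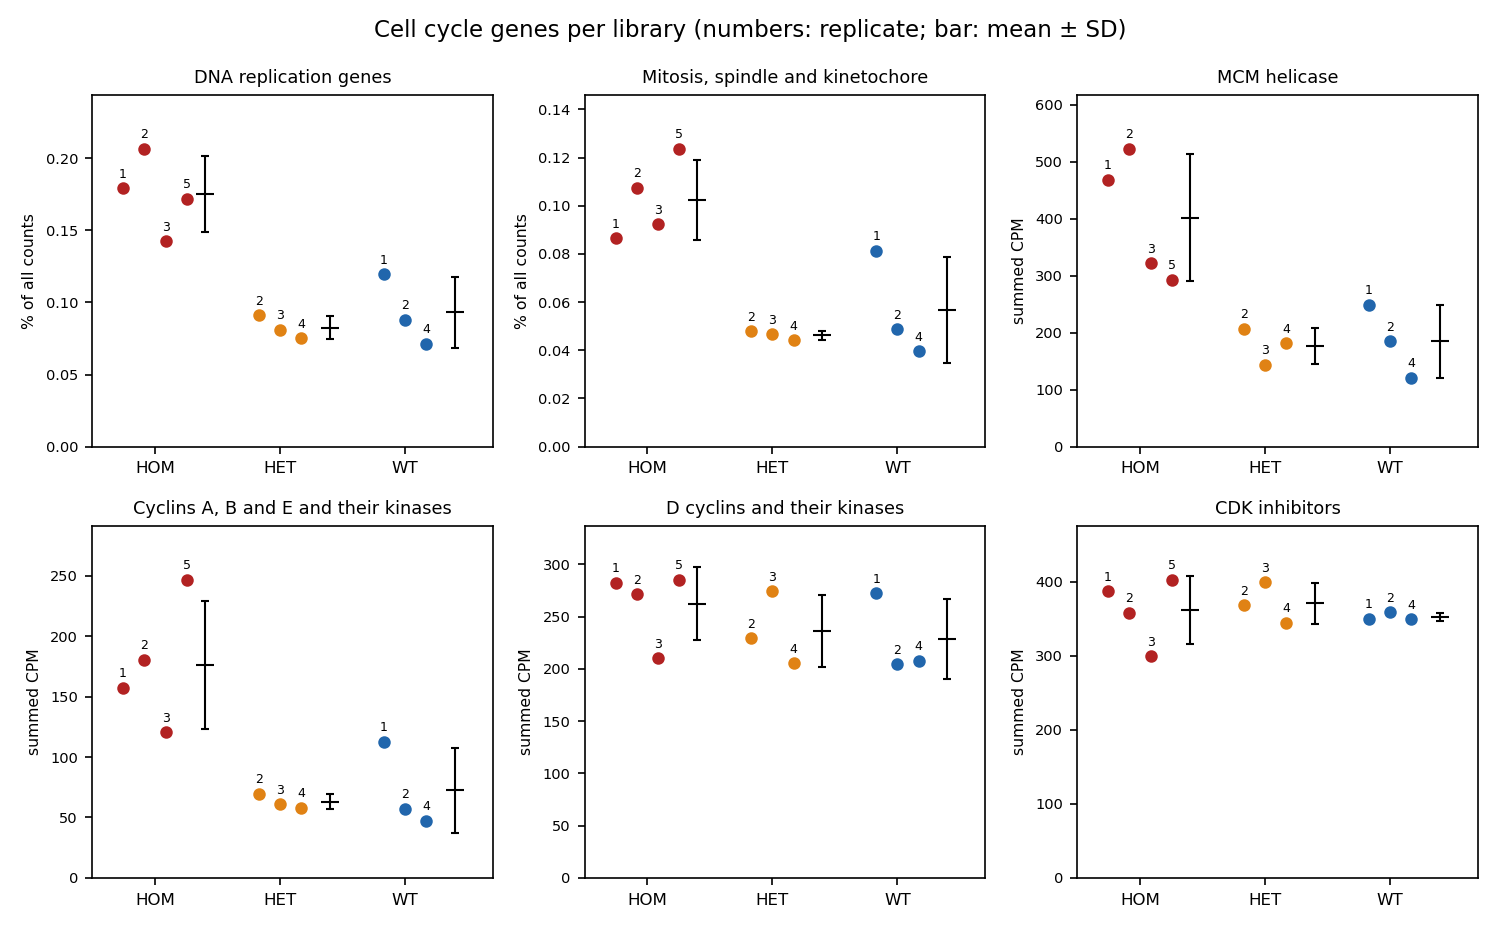
Each point is a library, numbered by replicate, with the mean ± SD beside each group (HOM n = 4, HET n = 3, WT n = 3); the upper left and middle panels show the share of all counts in percent and the other panels summed CPM. HOM libraries lie above every HET and WT library for replication, mitosis, MCM helicase and cyclin A, B and E genes, with WT1 the nearest, while D cyclins and CDK inhibitors overlap between the groups.

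The replication genes with the smallest p-values supply nucleotides. RRM1, the large subunit of the ribonucleotide reductase that makes deoxynucleotides, was at 44.7, 48.1, 39.4 and 46.7 CPM across HOM1, HOM2, HOM3 and HOM5, at 16.4, 16.9 and 14.2 CPM across HET2, HET3 and HET4, and at 24, 19.5 and 15.3 CPM across WT1, WT2 and WT4. The HOM libraries lay close together and far above the rest. Its log2 fold change was 1.19 (SE 0.19, adjusted p = 0.449), and its unadjusted p of 5.3e-05 was the smallest of the edgeR fit. TK1, the thymidine kinase of dividing cells, was at 16.5, 18.5, 12.3 and 16.2 CPM in the HOM libraries, against 5.9, 5.73 and 4.94 CPM in the HET and 7.35, 4.94 and 4.73 CPM in the WT libraries (log2 1.48, SE 0.25). DCTPP1, a leading gene of the fit that is not on the list and removes unwanted deoxycytidine nucleotides, was at 15.9, 14.2, 12.6 and 17.8 CPM in HOM and 4.93, 6.49 and 5.09 CPM in WT heads (log2 1.46, SE 0.25). HET4, at 16.1 CPM, reached its HOM range. Over the 6 list genes of nucleotide supply, 5 reached an unadjusted p under 0.05 and 4 had every HOM library above every WT library.

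The steps that follow showed the same order of groups. The roles into which the lists are split here, and the genes named below from within them, were chosen after their values were seen, apart from the leading genes of the fit and of each list. The MCM helicase, which unwinds DNA at the fork, summed over its 7 gene IDs to 468.6, 523.3, 321.9 and 293.1 CPM across HOM1, HOM2, HOM3 and HOM5 and to 249.6, 185.1 and 120.9 CPM across WT1, WT2 and WT4. Its subunit MCM2 was at 93.8, 99.9, 51.2 and 42.8 CPM in the HOM libraries, against 26.7, 13 and 27.2 CPM in the HET and 34.4, 19.6 and 16.0 CPM in the WT libraries (log2 1.63, SE 0.41, adjusted p = 0.449). HOM1 and HOM2 were the high HOM libraries and WT1 the high WT library for this complex. CDC45 and the GINS subunits, which activate the helicase, had the largest median of the replication roles (log2 1.63 over 5 genes), and 4 of the 5 reached an unadjusted p under 0.05. HOM3 was the exception for these genes: its sum of 27.89 CPM was below the 31.45 CPM of WT1, against 65.72, 67.58 and 67.16 CPM in the other HOM libraries. Origin recognition and licensing genes had a median of 1.19 over 9 genes, with 7 at an unadjusted p under 0.05. Among them ORC4, a subunit of the origin recognition complex, was at 40.4, 47.8, 15.31 and 52.4 CPM in HOM and 15.096, 10.5 and 9.81 CPM in WT heads, so that HOM3 lay only just above WT1.

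Polymerases and primase (median log2 0.97, 6 of 9 at an unadjusted p under 0.05) and the sliding clamp, its loader and ligation genes (0.68, 7 of 8) differed by less. The clamp PCNA was at 202, 210, 123 and 233 CPM across HOM1, HOM2, HOM3 and HOM5, against 101, 104 and 90.9 CPM in the HET and 129, 81.9 and 74.6 CPM in the WT libraries (log2 1.01, SE 0.25). HOM3 lay below WT1 for PCNA. chaf1a, the large subunit of the factor that loads histones behind the fork, was at 57.0, 41.9, 31.3 and 58.5 CPM in HOM heads, 17.9, 16.9 and 17.4 CPM in HET heads and 24, 17.4 and 11.3 CPM in WT heads (log2 1.43, SE 0.29). Its groups did not overlap. ESCO2 and traip are leading genes of the fit outside the list. ESCO2, which acetylates cohesin so that sister chromatids hold together, was at 26.1, 24.9, 16.0 and 19.3 CPM in the HOM libraries, 8.72, 8.49 and 11.06 CPM in the HET and 11.4, 7.04 and 6.21 CPM in the WT libraries (log2 1.39, SE 0.28). traip, a ubiquitin ligase that acts at stalled forks, had 3.39, 6.70, 3.07 and 6.06 CPM in HOM and 0.805, 0.773 and 1.08 CPM in WT heads (log2 2.43, SE 0.49), the largest fold change of the 10 genes with the smallest p-values among those higher in HOM.

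Among mitosis genes, spc24 had the smallest p-value of the edgeR fit. It belongs to the kinetochore, which ties chromosomes to the spindle. spc24, of the NDC80 complex, was at 10.2, 15.07, 7.07 and 15 CPM across HOM1, HOM2, HOM3 and HOM5, at 3.2, 2.24 and 2.79 CPM in the HET libraries and at 3.77, 3.39 and 1.68 CPM in the WT libraries (log2 2.0, SE 0.39, adjusted p = 0.449). dsn1, of the MIS12 complex and also outside the list, was at 19.1, 16.4, 13.3 and 25.7 CPM in HOM and 6.84, 5.84 and 5.37 CPM in WT heads (log2 1.63, SE 0.32). Both genes separated the HOM libraries from all others. Of the 15 kinetochore genes on the list, 8 reached an unadjusted p under 0.05, but only 3 had every HOM library above every WT library, and their summed level in HOM3 (153.8 CPM) was below that in WT1 (175.8 CPM). TPX2, a spindle assembly factor, was at 27.8, 25.5, 18.8 and 35.7 CPM in HOM and 15.3, 6.96 and 8.05 CPM in WT heads (log2 1.42, SE 0.31). The 5 condensin genes, which compact chromosomes, all had every HOM library above every WT and every HET library, with fold changes of 0.90 to 1.23 on the log2 scale.

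Regulators of the cycle divided by phase. The 9 cyclins A, B and E and their kinases had a median of 1.34, and their summed level was 157.4, 180.4, 120.3 and 246.5 CPM across HOM1, HOM2, HOM3 and HOM5, 69.74, 61.12 and 58.16 CPM in the HET libraries and 112.6, 57.34 and 47.34 CPM across WT1, WT2 and WT4. CDK2, the kinase that partners cyclins E and A, was at 35.8, 47.5, 23.4 and 49.8 CPM in HOM and 19.7, 14.4 and 8.09 CPM in WT heads (log2 1.47, SE 0.35). CDK1, the mitotic kinase, was at 36.8, 47.2, 29.5 and 76.5 CPM in HOM and 28.2, 13.4 and 14.5 CPM in WT heads (log2 1.34, SE 0.35), with WT1 just below HOM3. WEE1, which holds CDK1 inactive, was at 21.1, 23.1, 15.102 and 14.95 CPM in HOM and 9.46, 8.89 and 10.2 CPM in WT heads (log2 0.96, SE 0.25).

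The D cyclins and their kinases, which act at entry to the cycle, overlapped between the groups. Their 4 gene IDs summed to 282.4, 271.5, 210.4 and 285.2 CPM in the HOM libraries and to 272.6, 204.7 and 207.8 CPM in the WT libraries, and 0 of 4 reached an unadjusted p under 0.05. CCND1 was at 164, 154, 145 and 183 CPM in HOM and 180, 133 and 140 CPM in WT heads (log2 0.09, SE 0.17, adjusted p = 0.954). The 8 CDK inhibitors likewise summed to 387, 357.8, 299.3 and 402.2 CPM in HOM and 349.6, 358.4 and 349.0 CPM in WT heads, with 0 of 8 at that p. Most of each sum came from 1 CDKN1B ID, so the sum says little about the others. Of the 8, 6 had a log2 fold change above 0 (median 0.28, range -0.21 to 1.42). For 1 of them every HOM library was above every WT library. The more abundant of the CDKN1B IDs, encoding p27, was at 309, 285, 237 and 307 CPM in HOM and 288, 289 and 285 CPM in WT heads (log2 -0.01, SE 0.13, adjusted p = 0.993).

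DREAM and RB complex genes had a median of 0.38 over 21 genes tested of 22, with 5 at an unadjusted p under 0.05 in the higher direction (RBBP4, MYBL2, RB1, e2f3 and E2F7) and 1 in the lower (LIN54). MYBL2, which replaces the repressive subunits and activates mitotic genes, was at 9.87, 10.2, 10.5 and 6.87 CPM across HOM1, HOM2, HOM3 and HOM5, 5.81, 4.26 and 3.69 CPM in the HET libraries and 4.33, 1.33 and 1.32 CPM in the WT libraries (log2 2.01, SE 0.46). The histone-binding subunit RBBP4 was at 113, 104, 87.2 and 146 CPM in HOM and 69.9, 50.5 and 47.3 CPM in WT heads (log2 1.01, SE 0.21). Neither gene overlapped between the groups. LIN52, the kinase's target in mammals, was at 26.1, 23.7, 16.4 and 43.4 CPM in HOM and 24.2, 20.1 and 24.8 CPM in WT heads (log2 0.25, SE 0.28, adjusted p = 0.903), and its groups overlapped. Of the 18 NFAT and calcineurin genes, 1 reached an unadjusted p under 0.05 (ppp3cb, a calcineurin catalytic subunit, log2 -0.39), with a median of -0.16. Of 19 DYRK kinases and partners, DYRK1B and GSK3B stood higher and 1 of the GSK3A IDs and clk4a lower at that p.

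**Figure D2:**
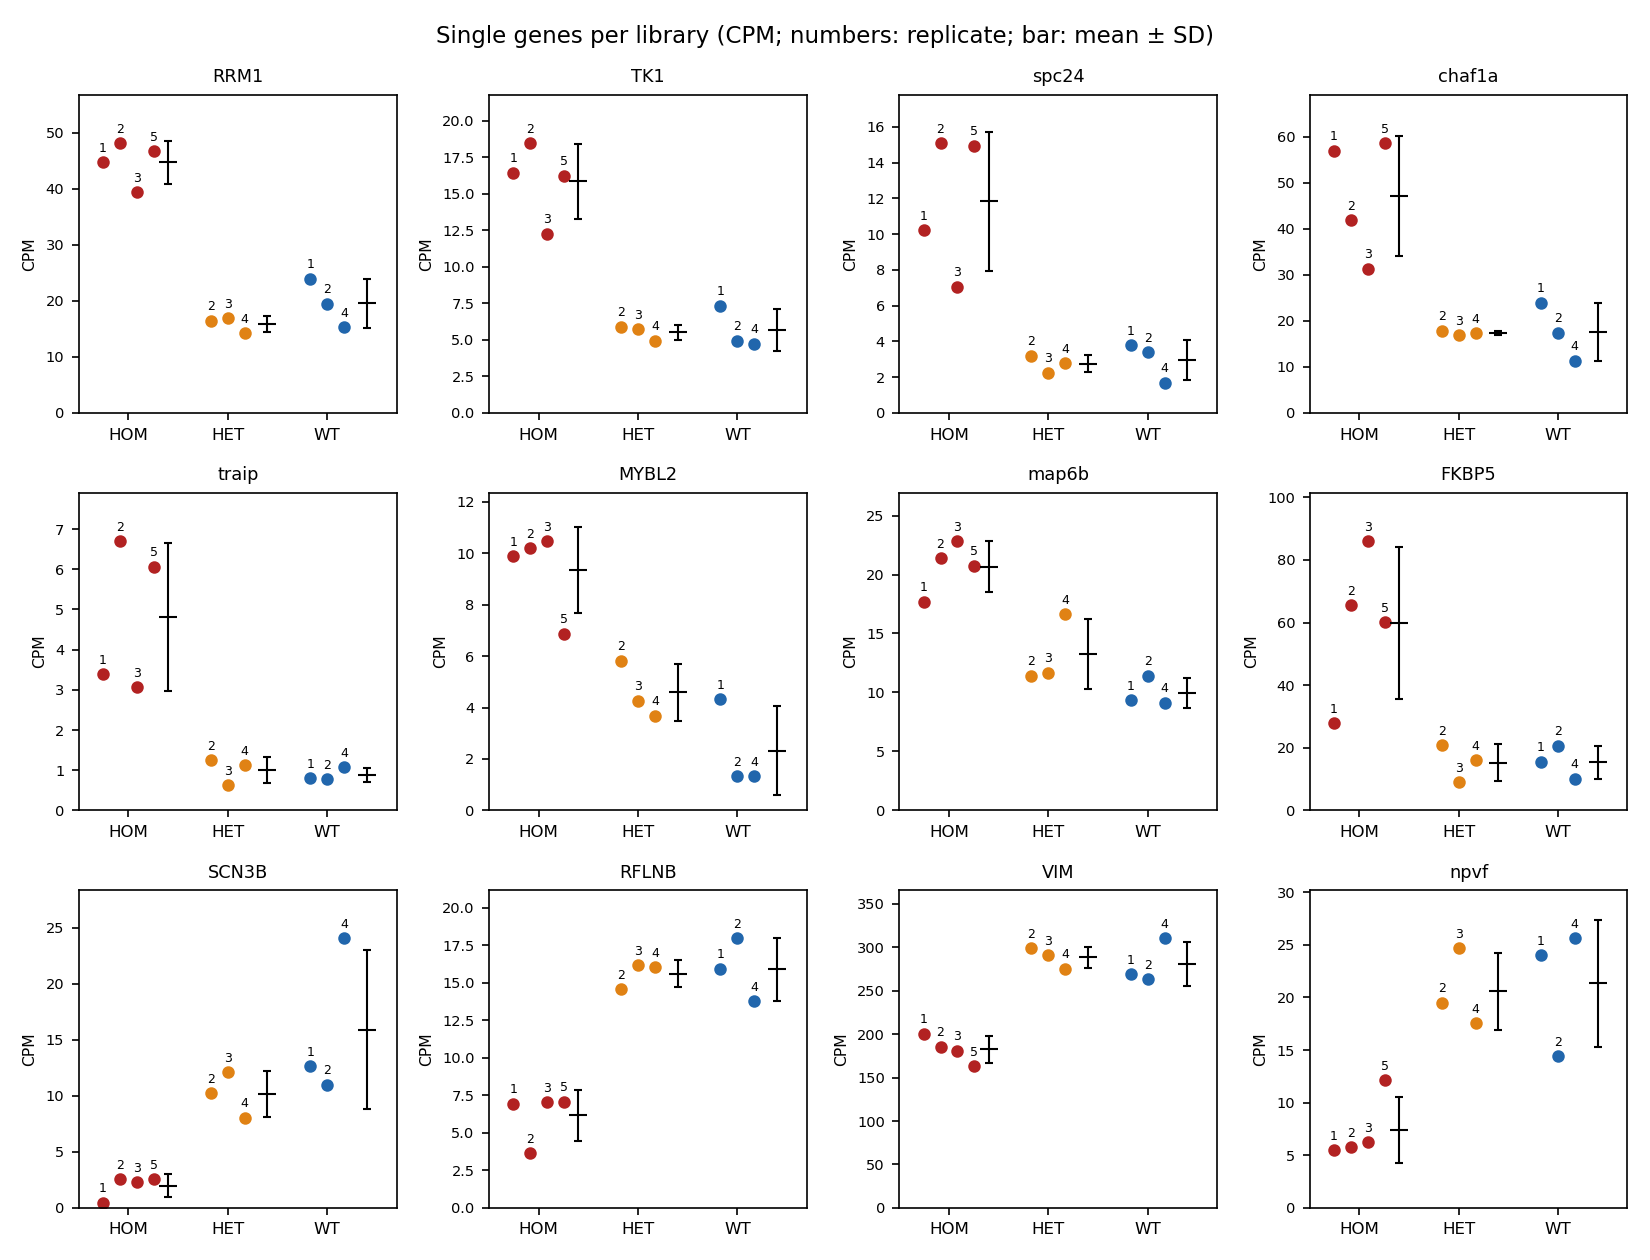
Each panel shows CPM of a gene in every library, numbered by replicate, with the mean ± SD beside each group (HOM n = 4, HET n = 3, WT n = 3). RRM1, TK1, spc24, chaf1a, traip, MYBL2, map6b and FKBP5 lie higher in every HOM library than in every WT library, and SCN3B, RFLNB, VIM and npvf lower.

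The HOM libraries were also set against the HET libraries. This comparison uses the same HOM libraries, so it is not independent of the one with WT. Again 0 genes passed an adjusted p under 0.05 in either direction (smallest 0.160, edgeR), with 1389 (6.61%) at an unadjusted p under 0.05, 825 higher (3.92%) and 564 lower (2.68%), and DESeq2 called 129 higher and 28 lower. Replication genes had a median of 1.1 over HET, with 45 of 54 at an unadjusted p under 0.05 in the higher direction against 3.92% of all genes. Mitosis genes had a median of 1.31, with 44 of 59, and 0 genes of either list reached that p in the lower direction. Every HOM library was above every HET library for 35 replication and 44 mitosis genes, against 4.07% of all genes. Every HOM library was above every HET and every WT library for 20 of the 54 replication and 19 of the 59 mitosis genes, against 1.57% of all genes tested. The ratio of the replication share was 2.12 over HET and 1.88 over WT.

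Several genes at the head of the fit lie on the chromosome of dyrk1ab. Gene order was taken from RefSeq's annotation of GRCz12tu, which is not the build of the files and is used here only for which genes share a chromosome and stand near each other. Of 18032 tested genes with a symbol of their own, 14220 were matched. Among the 20 genes with the smallest p-values (10 in each direction), 17 were matched and 5 of these, map6b, SCN3B, RFLNB, ABCG1 and rabgef1l, share a chromosome with dyrk1ab, which holds 3.59% of the matched genes. None of the 17 is on the chromosome of dyrk1aa. map6b is only 2 places from dyrk1ab in the order of protein-coding genes, and SCN3B is 58 places away. RFLNB, ABCG1 and rabgef1l are farther off, at 126, 255 and 335 places.

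At an unadjusted p under 0.005 the chromosome of dyrk1ab held the highest share of its genes among the 25 chromosomes, 3.53% of 510, against 0.377% to 1.74% on the 23 chromosomes that carry neither gene and 1.01% of 496 on that of dyrk1aa. At an unadjusted p under 0.05 it was the second highest (11.4%), with the 23 that carry neither gene at 4.71% to 11.5%. At that p there were 21 of 104 genes (20.2%) within 100 places of dyrk1ab, 13 of 118 (11%) at 101 to 200 places, 19 of 191 (9.95%) at 201 to 400 and 5 of 97 (5.15%) beyond, against 8.22% of all matched genes. Around dyrk1aa the share was 9 of 60 (15%) within 100 places, 4 of 57 (7.02%) at 101 to 200, 12 of 121 (9.92%) at 201 to 400 and 8.14% beyond, with no steady order beyond the nearest genes. Against HET, 7 of the 104 genes nearest dyrk1ab (6.73%) reached that p, and 26 of 191 (13.6%) at 201 to 400 places did, against 7.27% of all matched genes. Larvae sorted by genotype at a locus also differ in the stretch of chromosome inherited with it, so an effect of the deletion and of linked sequence cannot be told apart for these genes.

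**Figure D3:**
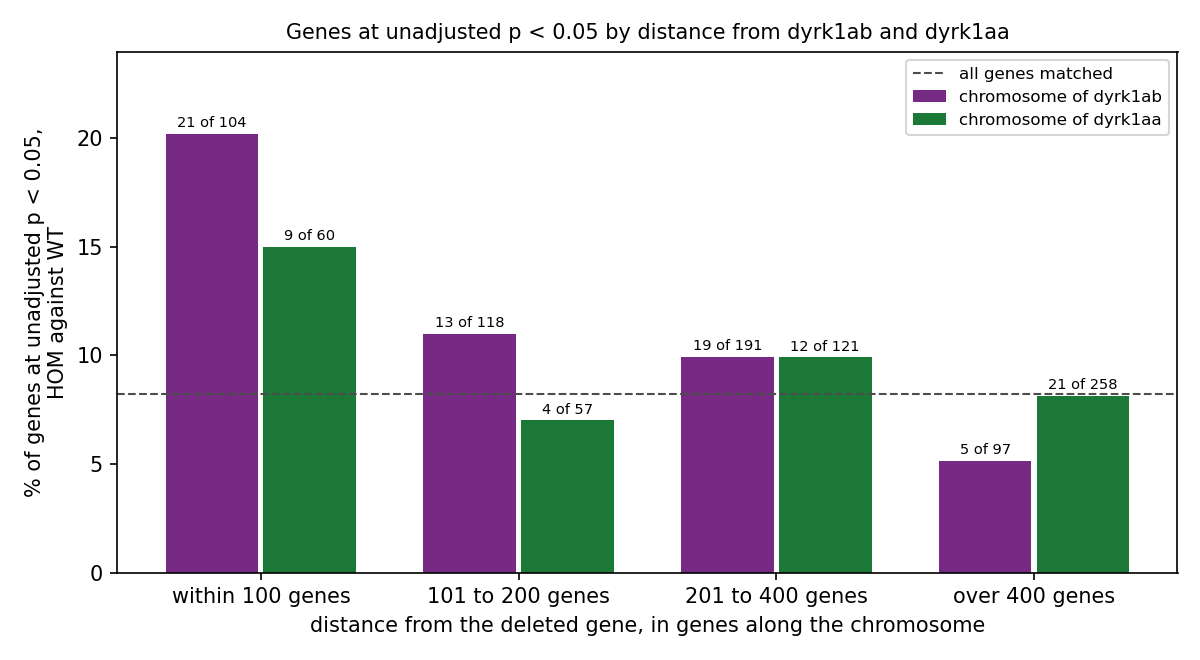
Bars give the share of genes at an unadjusted p under 0.05 between HOM and WT heads, by distance in genes from dyrk1ab or dyrk1aa, with the count of genes above each bar and the share over all 14220 matched genes as a dashed line. The share is highest within 100 genes of dyrk1ab (21 of 104), next highest within 100 genes of dyrk1aa (9 of 60), and from 5.15% to 11% farther out.

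Genes of the dyrk1ab chromosome stood both higher and lower in HOM heads. map6b, which encodes a microtubule-stabilizing protein of neurons, was at 17.7, 21.4, 22.8 and 20.7 CPM across HOM1, HOM2, HOM3 and HOM5, 11.4, 11.7 and 16.6 CPM across HET2, HET3 and HET4, and 9.36, 11.4 and 9.13 CPM across WT1, WT2 and WT4 (log2 1.05, SE 0.21, adjusted p = 0.449). SCN3B, an accessory subunit of voltage-gated sodium channels, was at 0.449, 2.57, 2.27 and 2.56 CPM in HOM heads, 10.2, 12.1 and 8.03 CPM in HET heads and 12.6, 11 and 24 CPM in WT heads (log2 -3.02, SE 0.51, adjusted p = 0.449). It had the largest fold change of the 20 leading genes, with no overlap between HOM and any other library, a position below both other groups that 0.652% of all genes tested shared. RFLNB, a filamin-binding regulator of actin bundles, was at 6.93, 3.65, 7.03 and 7.07 CPM in HOM heads, 14.6, 16.2 and 16.1 CPM in HET heads and 16.0, 18 and 13.8 CPM in WT heads (log2 -1.36, SE 0.25). ABCG1, a transporter that exports cholesterol, was at 9.37, 12.5, 15 and 14.3 CPM in HOM and 26.9, 33.7 and 37.1 CPM in WT heads (log2 -1.35, SE 0.26). For RFLNB the HET libraries lay within the WT range, whereas for ABCG1 they ran from 16.8 to 33.0 CPM, from just above the HOM libraries into the WT range. Nearer to dyrk1ab, aldh3a2a, 23 places away and encoding a fatty aldehyde dehydrogenase, was at 50.6, 45.5, 31.4 and 33.0 CPM in HOM and 23.0, 19.7 and 21.7 CPM in WT heads (log2 0.90, SE 0.20). dlc, a Notch ligand on the progenitor list, is 17 places away (log2 0.76, SE 0.32).

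Other leading genes that stood lower in HOM heads were not placed on that chromosome (VIM, USP2 and ADAMTS15 were not matched). VIM, the intermediate filament of radial glia and mesenchymal cells, was at 200, 185, 181 and 163 CPM across HOM1, HOM2, HOM3 and HOM5, 299, 291 and 275 CPM in HET heads and 269, 263 and 310 CPM in WT heads (log2 -0.62, SE 0.13). npvf, which encodes RFamide peptides of the hypothalamus that promote sleep in zebrafish larvae, was at 5.49, 5.79, 6.27 and 12.1 CPM in HOM heads, 19.5, 24.7 and 17.5 CPM in HET heads and 24, 14.4 and 25.6 CPM in WT heads (log2 -1.53, SE 0.32). For both genes the HET libraries were within the WT range and the HOM libraries lay below it. hap1, a trafficking adaptor abundant in hypothalamic neurons, was at 11.3, 11.7, 17.4 and 10.5 CPM in HOM heads, 14.5, 16.6 and 26.0 CPM in HET heads and 27.9, 28.0 and 28.0 CPM in WT heads (log2 -1.14, SE 0.25). USP2, a deubiquitinase that the clock controls in mammals, was at 36.6, 47.3, 38.4 and 36.9 CPM in HOM and 59.4, 67.7 and 62.0 CPM in WT heads (log2 -0.66, SE 0.14). In hap1 and USP2 the HET libraries stood below all WT libraries too.

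Neuronal gene lists had medians below 0, and the HOM libraries differed among themselves. Neuropeptide and secretory granule genes had a median of -0.28 over 55 genes, with 11 (20%) lower and 1 higher at an unadjusted p under 0.05, against 3.26% and 4.54% of all genes. The 11 were npvf, scg2b, SCG3, chgb, grp, PCSK1, CPE, ADCYAP1, pmchl, npb and crha, which include the peptide-processing enzymes PCSK1 and CPE beside the precursors. The list took 0.213%, 0.220%, 0.314% and 0.232% of counts in HOM1, HOM2, HOM3 and HOM5, 0.243%, 0.293% and 0.225% in HET2, HET3 and HET4, and 0.347%, 0.335% and 0.352% in WT1, WT2 and WT4. The WT heads lay above every other head of the line, and HOM and HET heads overlapped. Against HET the median of the list was -0.06, with 2 of 55 genes lower at that p, against 2.68% of all genes. The granule protein gene scg2b was at 257, 223, 361 and 183 CPM in HOM heads, 327, 291 and 255 CPM in HET heads and 384, 433 and 444 CPM in WT heads (log2 -0.72, SE 0.21). Without HOM3, HOM5 and HET4 there were 23 of 55 genes of the list lower at that p, and leaving out single libraries gave from 4 (without HOM2) to 13 (without HOM5).

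Synapse genes had a median of -0.18, with 9 of 87 (10.3%) lower and 1 higher at an unadjusted p under 0.05. Glutamatergic genes stood at -0.30 (5 of 53 lower, 9.43%) and sodium channels at -0.28 (2 of 17, 11.8%). GABAergic genes at -0.25 (2 of 49, 4.08%) and potassium and calcium channels at -0.35 (4 of 72, 5.56%) held shares near the 3.26% of all genes. No gene of these 4 lists was higher at that p. Against HET, 3 of 87 synapse, 1 of 53 glutamatergic and 1 of 17 sodium channel genes were lower. So were 0 of 49 GABAergic and 1 of 72 potassium and calcium channel genes, against 2.68% of all genes. The medians of these lists over HET ran from -0.22 to -0.06. The synapse list took 0.529%, 0.513%, 0.891% and 0.764% of counts in HOM1, HOM2, HOM3 and HOM5, 0.615%, 0.727% and 0.695% in the HET and 0.775%, 0.834% and 0.866% in the WT libraries. HOM1 and HOM2 were the lowest libraries of the line, while HOM3 was the highest and HOM5 lay just below WT1. HOM1 and HOM2 also carried more skin and muscle counts than HOM3 and HOM5, and their part in the neuronal difference was not tested. Skin genes took 4.59%, 4.84%, 2.47% and 3.01%, and muscle genes 2.64%, 2.32%, 0.47% and 1.41% of counts in the 4 HOM libraries, against 3.78% to 4.12% and 1.06% to 2.34% in the WT libraries. Without HOM3, HOM5 and HET4 the synapse median was -0.64, with 48 of 87 genes lower at an unadjusted p under 0.05. In that fit 32 of 54 glutamatergic, 24 of 49 GABAergic and 32 of 71 potassium and calcium channel genes and 8 of 18 sodium channel genes were lower, with medians of -0.93, -0.73, -0.87 and -0.57. Leaving out HOM3 alone gave 18 synapse, 19 glutamatergic, 8 GABAergic and 14 potassium and calcium channel genes lower, and leaving out HOM2 gave 4, 3, 0 and 1.

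**Figure D4:**
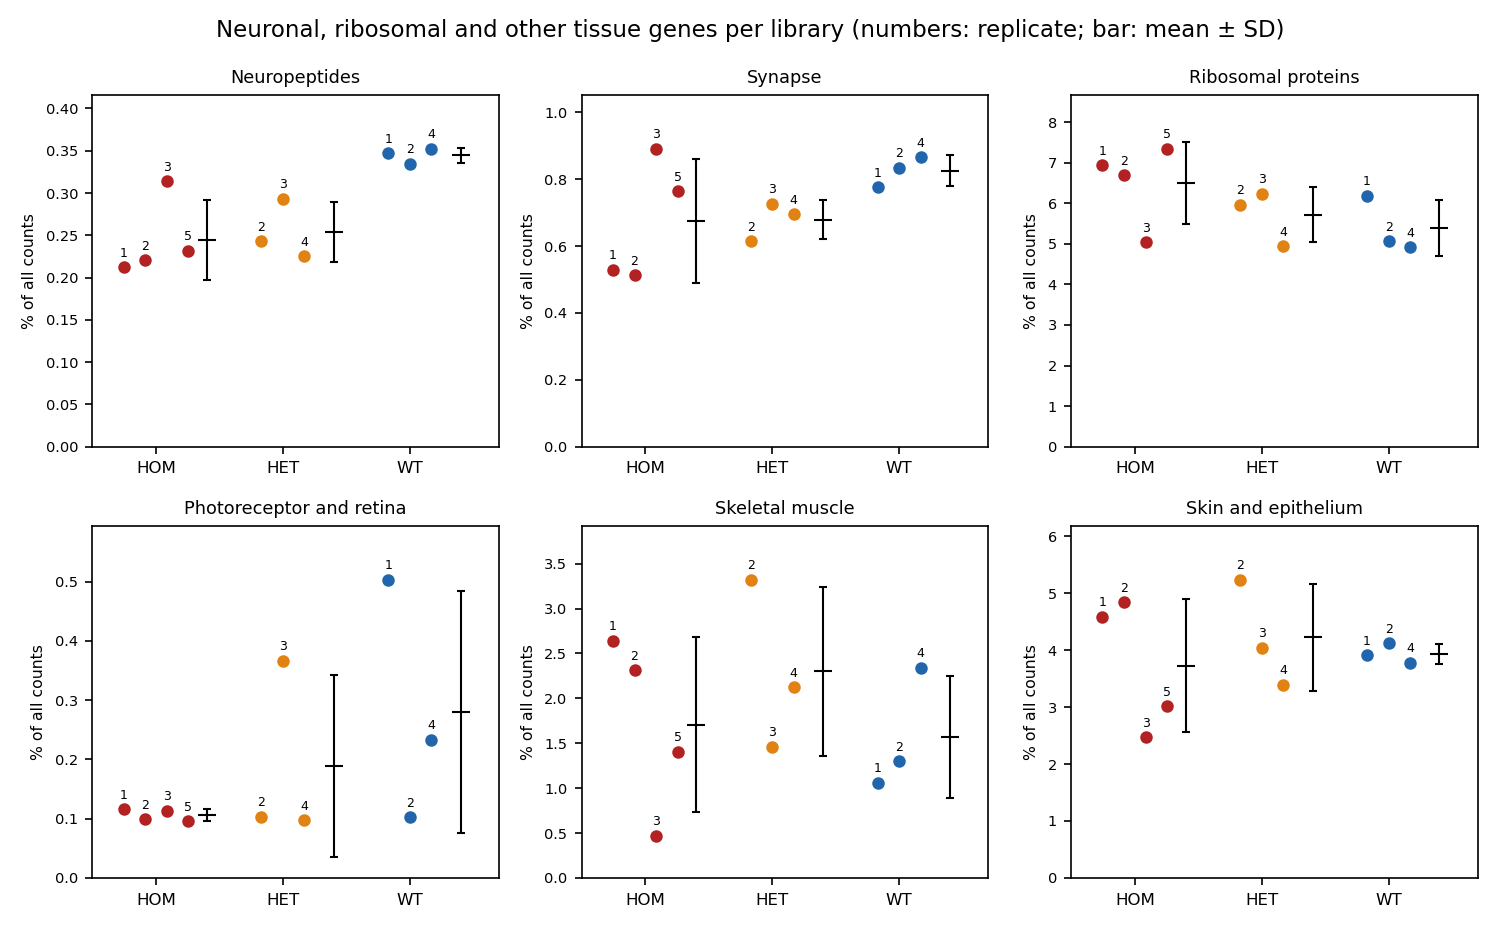
Shares of all counts in percent per library for 6 gene lists, numbered by replicate, with the mean ± SD beside each group (HOM n = 4, HET n = 3, WT n = 3). HOM1 and HOM2 have the lowest synapse shares (0.529% and 0.513%) and high skin shares, HOM3 the highest synapse share (0.891%), and WT1, WT4 and HET3 the high photoreceptor shares.

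The monoamine lists differed in share, with 2.63% of dopaminergic and 10% of serotonergic and noradrenergic genes lower, against 3.26% of all genes. Among 38 dopaminergic genes, 1 (SLC6A3, the dopamine transporter) was lower at an unadjusted p under 0.05, at 2.39, 2.52, 5.59 and 4.04 CPM in HOM and 4.98, 8.63 and 7.89 CPM in WT heads (log2 -0.98, SE 0.39, adjusted p = 0.582), with HOM3 inside the WT range. Of 40 serotonergic and noradrenergic genes, 2 were higher (5%) and 4 lower (10%) at that p, against 4.54% and 3.26% of all genes. Every HOM library was below every WT library for 6 of them (15%), against 3.65% of all genes. The reverse held for 3 (7.5%), against 4.05%. The noradrenergic transcription factor PHOX2A was at 19.7, 17.8, 17.8 and 13.2 CPM in HOM heads, 15.8, 16.4 and 17.8 CPM in HET heads and 23.9, 23.8 and 36.6 CPM in WT heads (log2 -0.71, SE 0.21). Its HET values overlapped the HOM range.

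Progenitor and regional genes stood on both sides of WT. Of 59 Notch and neural progenitor genes, 8 were higher and 5 lower at an unadjusted p under 0.05, with a median of 0.12, which was -0.02 without HOM3, HOM5 and HET4 (4 higher and 9 lower). The higher ones included tubb5, a tubulin of early neurons and progenitors, at 160, 150, 177 and 230 CPM in HOM and 109, 83.2 and 72.9 CPM in WT heads (log2 1.02, SE 0.21), and NOTCH1, the Notch receptor, at 44.4, 35.2, 49.1 and 61.3 CPM in HOM and 33.7, 27.3 and 23.7 CPM in WT heads (log2 0.75, SE 0.21). The other higher ones were PCNA, which is also on the replication list, STMN1, HES6, ascl1b, dlc and her15.1. The lower ones were both TBR1 genes, which mark glutamatergic neurons of the forebrain, neuronal ELAVL4, the progenitor gene SOX2 and dll4 of the Notch pathway. Progenitor and Notch genes thus stood on both sides. TBR1 was at 33.2, 31.6, 33.1 and 40.3 CPM in HOM heads, 36.7, 33.5 and 23.1 CPM in HET heads and 40.6, 61.0 and 50.3 CPM in WT heads (log2 -0.55, SE 0.20), so HOM and HET overlapped. CBLN1, a synaptic organizer made by cerebellar granule cells, was at 70.6, 59.9, 94.9 and 78.7 CPM in HOM heads, 90.1, 115 and 98.1 CPM in HET heads and 110, 119 and 125 CPM in WT heads (log2 -0.63, SE 0.17). Radial astroglia genes went both ways: FABP7, the brain fatty acid-binding protein of radial glia, was at 1486, 1365, 1389 and 1772 CPM in HOM and 999, 1065 and 976 CPM in WT heads (log2 0.57, SE 0.16), whereas VIM stood lower.

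Stress genes formed a further group. Of 89 integrated stress response and heat shock genes, 16 (18%) were higher and 1 lower at an unadjusted p under 0.05, against 4.54% and 3.26% of all genes. Leaving out WT4 gave 8 higher and leaving out WT2 10. For 15 (16.9%) every HOM library was above every WT library, against 4.05% of all genes, and the median was 0.24. The transcription factor DDIT3 (CHOP) was at 461, 430, 590 and 440 CPM across HOM1, HOM2, HOM3 and HOM5, 315, 381 and 314 CPM in HET heads and 217, 295 and 290 CPM in WT heads (log2 0.84, SE 0.17). Its regulator atf4a was at 125, 99.0, 66.3 and 134 CPM in HOM heads, 54.4, 81.2 and 68.6 CPM in HET heads and 50.4, 48.2 and 61.0 CPM in WT heads (log2 0.99, SE 0.24), and HOM3 lay within the HET range. The aminoacyl-tRNA synthetases SARS1, AARS1, WARS1, GARS1 and YARS1 were among the 16, as were the endoplasmic reticulum proteins calr3b, PDIA6, PDIA4, CRELD2 and MANF. FKBP5, a co-chaperone that glucocorticoids induce, was at 27.8, 65.5, 86.1 and 60.1 CPM in HOM heads, 20.9, 8.97 and 16.0 CPM in HET heads and 15.5, 20.6 and 10.1 CPM in WT heads (log2 1.96, SE 0.42, adjusted p = 0.449). The 34 glucocorticoid response genes, FKBP5 included, had a median of 0.02, with 5 higher and 1 lower at an unadjusted p under 0.05. REL, an NF-kappaB subunit, was at 26.2, 45.0, 49.8 and 38.597 CPM in HOM heads, 20.4, 10.5 and 13.6 CPM in HET heads and 18.6, 16.3 and 11.09 CPM in WT heads (log2 1.38, SE 0.30). Neither FKBP5 nor REL overlapped between HOM and the other groups. Cytokine and inflammation genes as a list had a median of 0.08, with 9 of 61 higher (14.8%) and 1 lower, and microglia and macrophage genes a median of 0.11, with 6 of 68 higher (8.82%) and 0 lower. Leaving out WT4 gave 5 and 3 higher genes in these lists, and leaving out WT2 gave 4 and 5. CEBPB was counted among the higher genes of the stress response, glucocorticoid, cytokine and microglia lists, so their counts are not separate.

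The apoptosis and growth arrest list had 6 of 44 genes higher (13.6%, against 4.54% of all genes) and 0 lower at an unadjusted p under 0.05 (among them bada and both GADD45G IDs), with a median of 0.17; without HOM3, HOM5 and HET4 there were 13 higher and 2 lower. BTG2, an antiproliferative immediate early gene, was at 113, 63.7, 73.6 and 56.4 CPM in HOM heads, 46.0, 43.4 and 46.9 CPM in HET heads and 40.9, 38.3 and 42.9 CPM in WT heads (log2 0.91, SE 0.22). Its HOM values did not overlap the others, and HOM1 was the high library.

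Lists of general expression machinery had medians above 0. Under all alternatives the ribosomal median ran from 0.23 to 0.52 and the oxidative phosphorylation median from 0.18 to 0.47. What depended on single libraries in these 2 lists was the count of genes at an unadjusted p under 0.05. Splicing regulators had 13 of 70 genes higher (18.6%, against 4.54% of all genes) and 1 lower at an unadjusted p under 0.05, with a median of 0.20. Without HOM3, HOM5 and HET4 that median was -0.02, with 13 higher and 12 lower. The list was led by HNRNPM at 28.8, 21.6, 15.19 and 25.7 CPM in HOM and 12.5, 10.9 and 9.49 CPM in WT heads (log2 1.05, SE 0.25). Ribosomal protein genes had a median of 0.37, with 83 of 85 above 0, yet only 7 reached that p and 0 had every HOM library above every WT library. That count was 78 without HOM3, 30 without WT1, 57 without HOM3, HOM5 and HET4, and 0 without HOM1, HOM5 or WT4. Their share was 6.93%, 6.69%, 5.03% and 7.35% of counts in HOM1, HOM2, HOM3 and HOM5 and 6.18%, 5.06% and 4.92% in WT1, WT2 and WT4, with HOM3 inside the WT range. Oxidative phosphorylation genes had a median of 0.34, with 75 of 83 above 0 and 6 at that p (52 without HOM3, and 2 without HOM1 or WT4). PRMT5, an arginine methyltransferase of splicing proteins and histones, was among the 10 leading higher genes at 29.1, 35.3, 24.5 and 30.6 CPM in HOM heads, 19.1, 19.4 and 16.9 CPM in HET heads and 16.2, 13.1 and 15.7 CPM in WT heads (log2 0.99, SE 0.18).

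Lower lists outside neurons included glycolysis and hypoxia genes (median -0.17, 10 of 80 lower and 0 higher at an unadjusted p under 0.05). For the circadian clock the median was -0.17, with 7 of 52 lower and 0 higher. Leaving out WT4 gave 1 lower clock gene, and leaving out HOM3 gave 12. Pituitary hormone genes had a median of -0.62 over 13 genes tested, with 1 lower (7.69%) and 0 higher. Against HET the pituitary median was 0.01. The share of all genes lower at that p against WT was 3.26%. BNIP3, a hypoxia-induced mitophagy receptor, was at 2.89, 1.61, 3.70 and 2.76 CPM in HOM and 5.08, 7.64 and 4.77 CPM in WT heads (log2 -1.09, SE 0.36). CRY1, a repressor of the clock, was at 150, 157, 176 and 135 CPM in HOM heads, 215, 182 and 198 CPM in HET heads and 188, 205 and 220 CPM in WT heads (log2 -0.41, SE 0.14). HOM values lay below both other groups for CRY1. The time of day at which larvae were collected is not given in the sources used here.

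Photoreceptor genes had the lowest median of all lists, -2.55, with 18 of 60 lower at an unadjusted p under 0.05, but the difference followed single heads, with 3 of 62 lower without WT1, 33 of 63 without WT2 and 2 of 63 without HOM3, HOM5 and HET4. The 15 cone genes summed to 193.8, 126.7, 75.13 and 79.89 CPM across HOM1, HOM2, HOM3 and HOM5, 234.4, 2182 and 242.1 CPM across HET2, HET3 and HET4, and 2868, 58.67 and 973.5 CPM across WT1, WT2 and WT4. WT1, WT4 and HET3 were high, and WT2 was below every HOM library. Eyes were removed before extraction, and the amount of eye tissue left in each head was not measured. Lens, muscle, and cartilage and bone genes gave 0 of 39, 0 of 58 and 0 of 48 genes at an unadjusted p under 0.05, although 19 of 47 cartilage and bone genes were higher without HOM3, HOM5 and HET4.

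**Figure D5:**
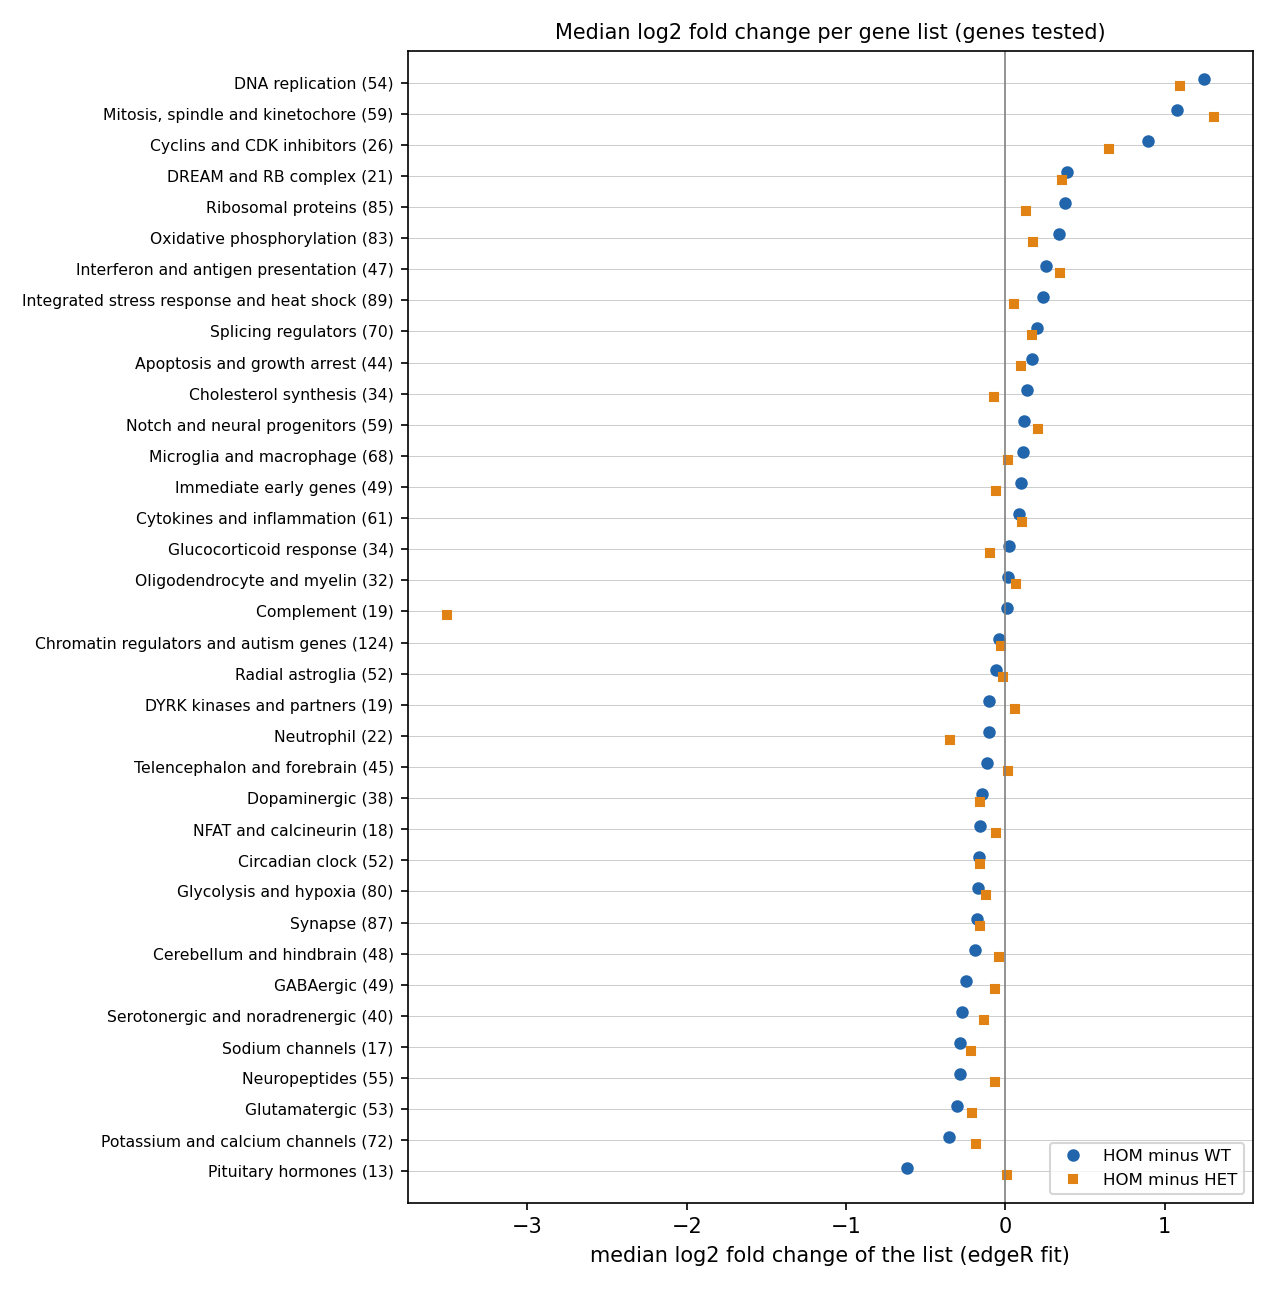
Median log2 fold change per gene list for HOM minus WT (circles) and HOM minus HET (squares), ordered by the HOM minus WT median. The number of genes tested is in brackets. Not shown are photoreceptor and retina (median -2.55 against WT), lens, muscle, cartilage and bone, and skin genes. Erythrocyte, digestive organ, endothelium, pigment cell and hair cell genes are also left out. Replication, mitosis and cyclin lists stand to the right in both comparisons. Neuronal lists stand to the left against WT. Against HET their medians are mostly smaller in size (neuropeptides -0.06, GABAergic -0.06, synapse -0.16, glutamatergic -0.21). The complement square stands at -3.51, and digestive organ genes took 0.134% to 0.641% of counts in the HOM libraries and 6.72% in HET4.

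The HOM minus WT difference was also compared with that of the scn1lab line in a fit over all 19 libraries. Of 22488 genes tested, 5 had a higher difference in the dyrk1a line (0.0222%) and 1 a lower one (0.00445%) at an adjusted p under 0.05. The 5 were egr4, BTG2, zgc:122979, a JUNB ID and FOS, mostly immediate early genes, and each had a lower mean in scn1lab HOM than in scn1lab WT heads. For BTG2 the group means, scaled over the 19 libraries, were 69.64 CPM in dyrk1a HOM and 37.18 CPM in dyrk1a WT heads, and 26.08 CPM in scn1lab HOM and 154.5 CPM in scn1lab WT heads (difference of log2 fold changes 3.47, SE 0.44, adjusted p = 0.0045, edgeR). None of the 6 genes is on the replication or mitosis list. The median difference was 0.81 over replication genes, with 15 at an unadjusted p under 0.05 in the higher direction and 0 in the lower, against 5.52% and 5.27% of all genes. Over synapse genes it was 1.12, with 25 higher. Within the dyrk1a line the synapse median was -0.18, so this difference is not a rise in dyrk1a HOM heads. The replication median within the dyrk1a line was 1.25, larger than the 0.81 between the lines. PCNA was at 131.6, 155.7 and 122.4 CPM in scn1lab HOM and 112.6, 92.3 and 86.81 CPM in scn1lab WT heads. RRM1 and TK1 overlapped between those groups. The difference was not particular to replication: it was 0.70 over radial astroglia genes, with 15 of 52 higher, and -0.77 over microglia and macrophage genes.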

How the data were processed

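Total RNA of 1 head per library was sequenced, and the authors deposited a table of raw read counts per gene for each library. Per the submitters' processing notes, the tools were Trim Galore 0.5.0, HISAT2 2.1.0, StringTie 1.3.3b and DESeq2 1.22.1, with the build GRCz11. The deposited counts cover 32020 Ensembl gene IDs, of which 28975 have a symbol and 5966 share one with another ID, so such pairs are uncertain where reads could be split. Whether counting used strand is not given in the sources used here.

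Counts of the 10 libraries of the line went through edgeR's filterByExpr and TMM scaling and then its test (edgeR 4.0.16, R 4.3.3, robust quasi-likelihood, Benjamini-Hochberg adjustment, threshold 0.05), with 7 residual degrees of freedom. DESeq2 1.42.0 and limma 3.58.1 were alternatives. The fit was tested on simulated counts for HOM against WT. Of 50 genes per fold size among 20486, it recovered 40 at 4-fold higher, 33 at 4-fold lower, and 3 each at 2-fold higher and lower. The changed genes were drawn only from those above a floor of mean CPM, so recovery of genes of few CPM was not tested.

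The 46 gene lists (2517 names, by symbol, 1648 matched directly, 664 through paralog letters, 203 not matched) and the comparison were chosen with earlier results of these data known. Genes named by rule are DYRK1A, the 10 smallest unadjusted p-values in each direction with a mean of at least 1 CPM, and 2 per list. Further genes, such as MCM2, CDK1, LIN52 and aldh3a2a, were named outside this rule. With 4 against 3 libraries, an exact two-sided permutation test cannot go below 0.0571. Depth of 16185321 to 27649859 counts limits precision for genes of few CPM. Not every same-numbered pair of libraries deviated together, so numbers were not used as pairs. No sequence is printed here.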

Additional observations from a re-analysis of the deposited data

Results flagged for a closer look

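Of 152 groups of 4 HOM values tested for a single library far from the other 3, 13 stood out, where chance gives about 1 in 20. HOM5 was the far library for MYBL2 (6.87 CPM, the lowest), PSME2, a proteasome activator subunit (71.1 CPM, the highest), npvf (12.1 CPM, the highest), cybb, the phagocyte oxidase subunit (4.24 CPM, the lowest), and the share of pigment cell genes (0.0697%). HOM1 was the far library for SCN3B (0.449 CPM, the lowest), ROM1, a photoreceptor disc protein (1.65 CPM, the highest), the lens crystallin crygm2d2 (11 CPM, the highest) and the share of lens genes (0.0139%). HOM3 was the far library for 1 of the GSK3A IDs (22.2 CPM), for havcr1 (16.4 CPM, the lowest) and for the share of cholesterol synthesis genes (0.117%). HOM2 was the far library for RFLNB (3.65 CPM, the lowest). For MYBL2, npvf, SCN3B and RFLNB the far library was still on the same side of every WT library as the other HOM libraries.

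BTG2 differed between the lines in a test of the difference itself (log2 difference 3.47, SE 0.44, adjusted p = 0.0045, edgeR over 19 libraries). It was higher in 4 of 4 dyrk1a HOM than in the dyrk1a WT heads, without passing the test within that line.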

How the results depend on the processing

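The number of called genes depended on the tool and on single libraries, whereas the direction of the replication and mitosis lists did not. DESeq2 called 125 higher and 37 lower in HOM against WT, 129 and 28 against HET, and 142 and 118 for the difference between lines. Leaving out 1 library at a time gave 0 to 3 genes higher (GPM6B, zgc:171679 and si:dkey-22i16.9 without WT2) and 0 lower against WT. Against HET it gave 0 to 1 higher (gnb4b without HOM2) and 0 to 1 lower (mhc1zda without HET3), and for the difference between lines 3 to 61 higher and 0 to 6 lower (61 and 6 without scn1lab HET1). The replication median ranged from 1.04 to 1.46, with 33 to 45 genes at an unadjusted p under 0.05, and the mitosis median from 0.84 (without WT4) to 1.59 (without WT1), with 19 to 46. Without HOM3, HOM5 and HET4 together, chosen after seeing the data, 6 were called higher and 6 lower against WT and 1 lower against HET, with 23 mitosis genes at that p.

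Deviations of same-numbered libraries from their group means correlated at -0.06 (HOM1, WT1), 0.02 (HOM2, WT2), 0.21 (HOM2, HET2), -0.14 (HOM3, HET3), 0.23 (HET2, WT2) and 0.15 (HET4, WT4), so that not every pair deviated together. A replicate block gave 23 mitosis genes at an unadjusted p under 0.05 and 3 genes higher for the difference between lines, with 3 and 7 residual degrees of freedom, and 0 calls against WT. Among the values of named genes under all alternatives, 42 passed the threshold, all with DESeq2. A further 4 did not keep their direction, each for a gene at 0 CPM in at least 1 HOM and 1 WT library. FABP1 without WT1 (range over left-out libraries -6.79 to 0) and amy2al2 without WT4 (-10.39 to 0) went to 0. Every HOM and WT library that remained for these genes was at 0 CPM. crygm2d2 turned positive without WT1 (-6.19 to 2.27) and with limma's quality weights (0.82), an alternative chosen after seeing the data. The cause for crygm2d2 was not tested. Depth limited the genes of few CPM.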

Other observations

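Leaving out the 3 libraries that stood apart left HOM1 and HOM2 to represent the HOM group, and edgeR then called 6 genes lower and 6 higher against WT. The lower ones included NOVA1, a neuronal splicing factor (log2 -2.55, adjusted p = 0.0358), GPATCH8 (-1.69), the neuronal globin NGB (-1.42), the calcium-activated potassium channel KCNMA1 (-1.49) and KSR2 (-1.88). The higher ones were SCHIP1 (1.98), si:ch73-288o11.5 (2.1), si:dkey-19b23.12 (1.52), DOLPP1 (1.90), the globin HBE1 (1.69) and the replication gene ORC4 (1.88). NOVA1 was also the gene called lower against HET in that fit (log2 -2.58). HOM1 and HOM2 were the HOM libraries with the highest skin and muscle shares, whose part in these calls was not tested.

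Further genes near the deleted loci stood apart between HOM and WT without passing the test. ANKK1, a kinase gene 56 places from dyrk1ab, was at 4.09, 2.57, 5.26 and 2.49 CPM across HOM1, HOM2, HOM3 and HOM5 and at 0.755, 0.429 and 1.00 CPM across WT1, WT2 and WT4 (log2 2.3, SE 0.53). rnaset2l, a ribonuclease gene 14 places away, was at 10.9, 6.44, 6.69 and 8.22 CPM in HOM and 3.87, 2.58 and 2.0 CPM in WT heads (log2 1.52, SE 0.33). ACAD8, a mitochondrial dehydrogenase gene of valine breakdown 11 places away, was at 17.4, 27.2, 6.23 and 10.2 CPM in HOM and 28.6, 32.5 and 36.13 CPM in WT heads (log2 -1.09, SE 0.40). YKT6, a SNARE of vesicle fusion, 64 places from dyrk1aa, was at 11, 10.7, 11.3 and 11.8 CPM in HOM and 6.14, 2.32 and 3.84 CPM in WT heads (log2 1.45, SE 0.34). None of these overlapped between HOM and WT. Each was chosen after its values were seen, and an effect of the deletion and of linked sequence cannot be told apart.

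Among the leading genes, ADAMTS15, a matrix protease, was at 2.64, 3.27, 2.73 and 2.36 CPM in HOM and 8.81, 7.43 and 9.33 CPM in WT heads (log2 -1.63, SE 0.34). ifngr1l, an interferon gamma receptor gene, was at 12.7, 11.4, 12.1 and 10.5 CPM in HOM heads, 12.3, 14.2 and 11.5 CPM in HET heads and 18.6, 20.7 and 23.6 CPM in WT heads (log2 -0.84, SE 0.18), so that HET lay with HOM. rabgef1l was at 4.39, 2.04, 4.42 and 3.23 CPM in HOM heads, 7.64, 9.19 and 9.93 CPM in HET heads and 7.85, 8.33 and 11.2 CPM in WT heads (log2 -1.37, SE 0.31), so that HET lay with WT.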
